A study of Saccharomyces cerevisiae with 32 samples.

Results

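The effect of a temperature-sensitive DED1 allele on translational efficiency was set, gene by gene, against the effect of a temperature-sensitive TIF1 allele in budding yeast at 37 °C. Translational efficiency (TE) is the ribosome footprint level of a gene minus its mRNA level on the log2 scale. For each gene the TE change in ded1-ts against wild-type DED1 was taken first, then the TE change in tif1-ts against wild-type TIF1 was subtracted. The remainder, called the TE difference, is negative where TE was lowered more by the DED1 mutation, and it equals the footprint difference minus the mRNA difference. Of 4919 genes joined between the tables of 5326 and 4921 genes, 2659 (54.1%) entered. Their mean normalized abundance was at least 100 in both assays of both tables. The mean was over wild type and mutant, so a single group could lie under the floor. The floor acted mostly through the TIF1 strains, whose table has lower values: 1882 joined genes were under it there alone, and 5 in the DED1 table alone. MHO1, at a lowest mean abundance of 99.89, lay just outside with a TE difference of -0.63, and TFC7, at 100.01, lay just inside with 0.53.

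The groups were wild-type DED1 (NSY10), ded1-ts (NSY11), wild-type TIF1 (NSY20) and tif1-ts (NSY21), each with an mRNA library set and a footprint library set. All were grown in synthetic complete medium, shifted to 37 °C and treated with cycloheximide (100 µg/ml, 2 min) just ahead of harvest; the sources used here do not give the length of the shift. Each group had 2 replicates, which the series design calls biological, but the deposited tables hold 1 value per group and gene, so no difference below has a replicate check and no test was run. "Higher" and "lower" describe these libraries, "2-fold" means at least 1 log2 unit, and only the counting error of the footprint part, from estimated read numbers, can be given.

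The helicases Ded1 and eIF4A both belong to the DEAD-box family and act in translation initiation. eIF4A is the helicase of the cap-binding complex eIF4F and helps the small ribosomal subunit load onto mRNA, and Ded1 is known mainly for unwinding structure in 5′ untranslated regions during loading and scanning. In yeast, eIF4A is far more abundant than Ded1 and is encoded by the near-identical paralogs TIF1 and TIF2. Both are needed for growth, so conditional alleles are used, in which the mutant gene is still transcribed and its level does not check the labels.

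The mutated genes were measured as follows. DED1 footprint levels were 14.21 in wild-type DED1 and 13.63 in ded1-ts, and 10.75 in wild-type TIF1 and 10.20 in tif1-ts. Its mRNA levels were 12.6, 11.82, 9.0 and 8.9 in the same order. Set against the median entered gene of each column, DED1 mRNA stood 3.20 log2 units above it in wild-type DED1 and 1.20 above it in wild-type TIF1, so the wild types differed in DED1 level. The TE difference of DED1 was 0.65, with an mRNA difference of -0.68 and a footprint difference of -0.03. TIF1 was not analysed here. TIF2 had footprint levels of 14.36, 14.10, 12.82 and 13.30 in the same order of groups and a TE difference of -0.41, but it shares reads with TIF1, and the sources used here do not say whether these strains carry a working TIF2. The spacing of the lowest footprint levels gave an estimated depth of 10.39 M reads in wild-type DED1, 10.03 M in ded1-ts, 11.8 M in wild-type TIF1 and 3.88 M in tif1-ts. For mRNA no depth could be estimated. The counting standard error of a footprint difference had a median of 0.113 and a 95th percentile of 0.172, intervals that cover counting error only. mRNA levels are printed to 1 decimal in most columns, and TE differences from these levels lay within 0.142 of those from the authors' deposited changes.

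Across the 2659 genes the TE difference had a median of -0.09 and an SD of 0.61. TE was at least 2-fold lower in ded1-ts than in tif1-ts, relative to the wild types, for 166 genes (6.24%) and at least 2-fold higher for 75 (2.82%). The footprint difference was at least 2-fold lower for 184 genes (6.92%) and higher for 113 (4.25%), and the mRNA difference was lower for 71 (2.67%) and higher for 77 (2.9%). Taken alone, the TE change in ded1-ts was at least 2-fold lower for 166 genes (6.24%) and higher for 18 (0.677%), whereas in tif1-ts it was lower for 83 (3.12%) and higher for 80 (3.01%). The SDs of the TE changes were close, 0.55 in ded1-ts and 0.57 in tif1-ts. Large TE changes in ded1-ts thus lay mainly downwards, though less so when genes of low abundance were let in. With a floor of 10, 238 were lower and 108 higher in ded1-ts, and with no floor 241 and 139. In tif1-ts the direction of the balance also moved with the set of genes. Without YRF1 and unnamed genes 83 were lower and 55 higher in tif1-ts, with a floor of 10 the counts were 154 and 261, and with a floor of 300 they were 16 and 38.

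**Figure D1:**
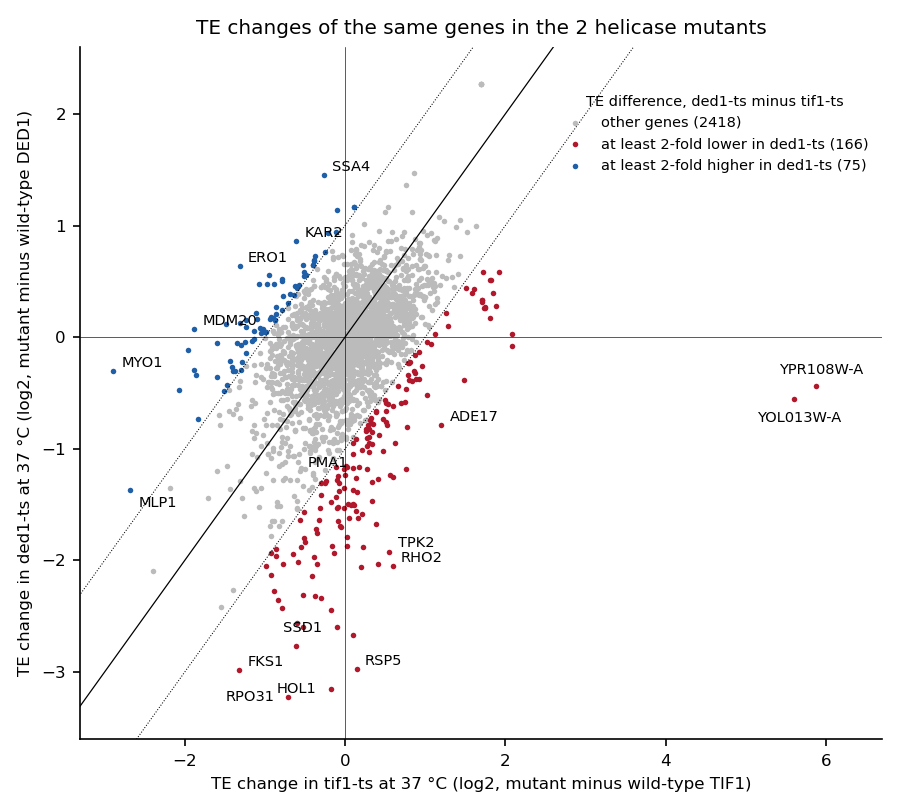
Each point is 1 of 2659 genes, with its TE change in tif1-ts on the x axis and in ded1-ts on the y axis (log2, mutant minus wild type, 37 °C). The solid line marks equal changes and the dotted lines a 2-fold difference, and the 166 red genes lie mainly below 0 on the y axis while the 75 blue genes lie mainly left of 0 on the x axis.

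TE changes in the mutants were related across genes, with Spearman's rho of 0.46 and Pearson's r of 0.41 over 2659 genes, as a description across genes that share libraries and are not independent. The corresponding values were 0.38 and 0.41 for footprints and 0.53 and 0.53 for mRNA. TE was lowered at least 2-fold in both mutants for 19 genes. They are 11.4% of those lowered in ded1-ts, beside 3.12% of all genes lowered in tif1-ts. They are 22.9% of those lowered in tif1-ts, beside 6.24% of all genes lowered in ded1-ts. No gene had TE changes of at least 2-fold in opposite directions. Over all genes TE was at least 2-fold higher in 0.677% in ded1-ts and in 3.01% in tif1-ts. Among the 19 was PAB1, the poly(A)-binding protein, with TE changes of -1.36 in ded1-ts and -1.43 in tif1-ts and so a TE difference of 0.07. TOP2, DNA topoisomerase II, had -2.09 and -2.39, and FKS1, a catalytic subunit of glucan synthase, had -2.98 and -1.32. FKS1 alone of the 19 was also at least 2-fold lower in the TE difference, at -1.66. Other members were IMD4, LEC1, MKT1, PLB2, SCW10, BUD3, EDE1, BUD14, HSL1, MYO2, SPA2, RRP12, PDE2, RAD9, DBP2 and MLP1. These genes were named after their values were seen.

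The 166 genes with the lower TE difference were carried mostly by ded1-ts. In 91 of them the TE change was past 2-fold in ded1-ts alone, in 28 in tif1-ts alone, in 1 in both and in 46 in neither. The footprint part was larger than the mRNA part in 143 of the 166 (86.1%), against 58.2% of all entered genes. These genes were chosen on the TE difference, so the shares are descriptions. For the 91 carried by ded1-ts, the median TE change was -1.64 in ded1-ts and -0.09 in tif1-ts, the median footprint changes were -1.44 and 0.00, and the median mRNA changes were 0.28 and 0.00. In these medians footprints were lower in ded1-ts and mRNA was not, but single members had less mRNA as well, among them CWP1 (mRNA change -4.04) and MET6 (-1.88).

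The 12 named genes with the lowest TE differences spanned -3.11 to -2.10. All 12 had a TE change past 2-fold in ded1-ts, from -3.22 to -1.88, and in tif1-ts their TE changes lay between -0.71 and 0.59. The footprint part was the larger part in all 12, with counting standard errors of 0.09 to 0.23. RSP5, the essential Nedd4-family ubiquitin ligase, had the lowest value. Its footprint levels were 10.73 in wild-type DED1, 8.12 in ded1-ts, 9.02 in wild-type TIF1 and 9.16 in tif1-ts, and its mRNA levels were 9.2, 9.56, 7.8 and 7.8. Only the ded1-ts footprint level was low: set against the median gene of its own column, it was -1.37, beside 1.06, 0.97 and 1.20 in the other groups. The TE difference of RSP5 was -3.11, with a footprint difference of -2.75 (counting SE 0.10) and an mRNA difference of 0.36.

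HOL1, a plasma membrane transporter whose mRNA carries an upstream open reading frame, had footprint levels of 9.09, 6.24, 7.37 and 7.20 and mRNA levels of 10, 10.3, 8.5 and 8.5 in the order wild-type DED1, ded1-ts, wild-type TIF1, tif1-ts. Its TE difference was -2.98. RPO31, the largest subunit of RNA polymerase III, had footprint levels of 10.43, 7.55, 8.45 and 7.94 and mRNA levels of 10, 10.34, 7.9 and 8.1 in that order, and a TE difference of -2.51. SSD1, an mRNA-binding translational regulator of cell wall genes, had footprint levels of 10.82, 8.86, 9.18 and 9.48 in that order and a TE difference of -2.50. In these 3 genes, as in RSP5, the ded1-ts footprint level was the low one of its table, and the mRNA level did not fall with it.

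TPK2, a catalytic subunit of protein kinase A, differed in having a larger mRNA part. Its TE difference of -2.48 was made of a footprint difference of -1.60 (counting SE 0.17) and an mRNA difference of 0.87, since its mRNA was 8.1 in wild-type DED1 and 8.57 in ded1-ts but 7.1 in wild-type TIF1 and 6.7 in tif1-ts. Other named genes of this group were SBE22, a protein of bud cell wall transport (-2.77), DUF1, a WD-repeat partner of a deubiquitinase (-2.45), BEM3, a GTPase-activating protein of Cdc42 (-2.26), YTA12, a subunit of the mitochondrial m-AAA protease (-2.26), SEC7, the Golgi exchange factor of Arf (-2.15), and SAN1, a nuclear quality-control ubiquitin ligase (-2.10).

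**Figure D2:**
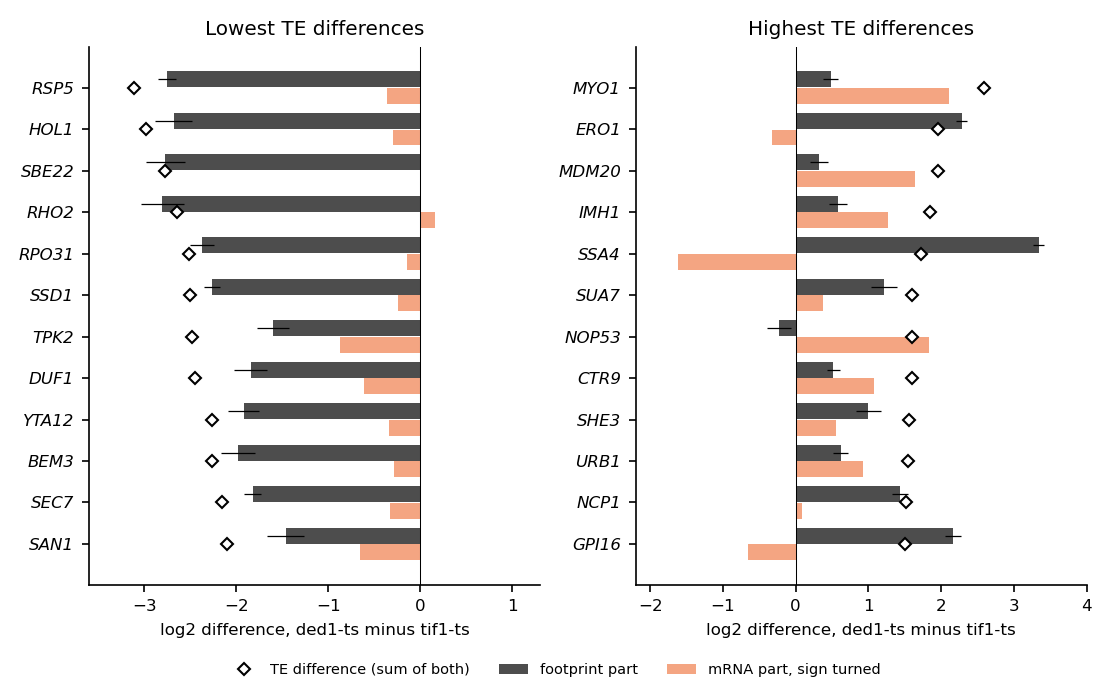
The 12 named genes with the lowest (left) and highest (right) TE differences, ded1-ts minus tif1-ts in log2 units. Diamonds give the TE difference, dark bars the footprint part with its counting standard error, and light bars the mRNA part with its sign turned, so that both bars add up to the diamond; the dark bars are the longer ones for all 12 on the left and for 6 of 12 on the right.

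A second set lay behind the lower TE differences, the 28 genes in which the TE change was past 2-fold in tif1-ts alone. Their median TE change was 1.72 in tif1-ts and 0.26 in ded1-ts. Of the 28, 6 were YRF1 genes, near-identical subtelomeric helicase genes whose reads cannot be assigned to 1 copy with certainty. Their footprint changes in tif1-ts lay between 1.70 and 1.75 with mRNA changes of 0.0, and in ded1-ts between 0.25 and 0.34. A further 9 had no standard name, with TE differences from -2.16 to -1.18, and 2 systematic names were not in the reference table: YPR108W-A had a TE difference of -6.32 and YOL013W-A one of -6.16. For YPR108W-A the footprint level was 4.33 in wild-type TIF1 and 10.61 in tif1-ts beside 11.86 in wild-type DED1 and 10.99 in ded1-ts, so that wild-type TIF1 stood apart from the other groups. For YOL013W-A the levels were 8.52, 14.03, 14.14 and 13.58 in the same order. Without these names the SD of the TE difference was 0.58.

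The other 11 of the 28 had standard names: HMLALPHA2, CIT2, FMP45, PST2, HKR1, PIC2, COX4, OM45, RPS22B, ADE17 and LSP1. CIT2, the peroxisomal citrate synthase, had a footprint change of 2.63 in tif1-ts and 0.57 in ded1-ts and a TE difference of -1.15. RPS22B overlaps the small nucleolar RNA gene SNR44, and the sources used here do not state whether counting used strand, which makes its value uncertain.

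Among the 75 genes with the higher TE difference, the mutant past 2-fold was more often tif1-ts than ded1-ts. The TE change was past 2-fold in tif1-ts alone in 35, in ded1-ts alone in 4, in both in 1 (MLP1) and in neither in 35. The 35 past it in neither had median TE changes of 0.48 in ded1-ts and -0.68 in tif1-ts. The footprint part was larger in 43 of the 75 (57.3%), close to the 58.2% of all genes. For the 35 carried by tif1-ts, the median TE change was -1.32 in tif1-ts and -0.05 in ded1-ts, and it was made of a median footprint change of -0.39 and a median mRNA change of 1.10 in tif1-ts. These TE values were lower in tif1-ts mainly through more mRNA. The 4 carried by ded1-ts were SSA4, PDR12, a weak-acid efflux pump, and CUP1-1 and CUP1-2, metallothionein copies with identical entries.

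MYO1, the heavy chain of the type II myosin of the cytokinetic ring, had the highest TE difference, 2.59. Its mRNA levels were 8.6 in wild-type DED1, 8.99 in ded1-ts, 5.2 in wild-type TIF1 and 7.7 in tif1-ts, and its footprint levels were 9.94, 10.03, 8.35 and 7.96. Against the median gene of each column, MYO1 mRNA was at -0.80, -0.38, -2.60 and -0.10, so wild-type TIF1 was the low group and tif1-ts lay near the DED1 strains. Wild-type TIF1 was also the low group for MLP1, a nuclear pore basket protein, with -1.20, -0.09, -2.60 and -0.30, and for IMH1, a Golgi coiled-coil protein, with -0.70, -0.14, -1.60 and 0.20. MDM20, a subunit of the NatB acetyltransferase, had -0.40, -0.71, -1.70 and -0.40, and NOP53, a ribosome assembly factor, had -0.90, -0.70, -2.10 and -0.10. Taken alone, the wild-type TIF1 mRNA of all these genes was under the abundance floor. Its levels were 5.2 for MYO1 and MLP1, 5.7 for NOP53, 6.1 for MDM20 and 6.2 for IMH1. They entered through their higher tif1-ts mRNA, and the part of the floor in this pattern was not tested.

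Wild-type TIF1 was the lowest of the 4 mRNA columns, so centred, in 23 of the 35 genes carried by tif1-ts (65.7%), beside 19.7% of all genes. In the 91 lower genes carried by ded1-ts, the ded1-ts footprint column was the lowest of the 4 in 88 (96.7%), beside 31.6% of all genes. The same levels chose these genes, and the floor let in a low group where the other group of its table was high. The shares therefore only describe where the differences lay. In the medians of the same 91 genes the wild types differed by 0.00 in footprints and 0.00 in mRNA, and the mutants by -1.30 and 0.19. In the 35 genes the wild types differed by 0.60 in mRNA and -0.07 in footprints, and the mutants by -0.20 and 0.54. The tables were normalized separately, so these centred values compare the place of a gene among the others and not amounts. Footprints took part in the 35 genes as well: the ded1-ts footprint column was the highest of the 4 in 26 (74.3%) and the tif1-ts column the lowest in 22 (62.9%), beside 31.0% and 27.1% of all genes. Over the whole groups the pattern was more mixed. The ded1-ts footprint column was the lowest in 124 of the 166 lower genes (74.7%) and the tif1-ts footprint column the highest in 98 (59.0%). In the 75 higher genes the ded1-ts footprint column was the highest in 61 (81.3%) and the tif1-ts footprint column the lowest in 42 (56.0%). Wild-type TIF1 mRNA was the lowest in 35 of the 75 higher genes (46.7%). What sets wild-type TIF1 apart in these genes was not tested.

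Footprints carried the TE difference in other genes of the higher group. ERO1, the thiol oxidase that drives disulfide bond formation in the endoplasmic reticulum, had footprint levels of 10.47 in wild-type DED1, 11.63 in ded1-ts, 9.54 in wild-type TIF1 and 8.42 in tif1-ts, and mRNA levels of 9.2, 9.72, 7.9 and 8.1. Its footprints changed in opposite directions, by 1.16 and -1.12, and the TE difference was 1.96. NCP1, the reductase that serves cytochrome P450 enzymes of sterol synthesis, had footprint levels of 10.92, 10.39, 9.37 and 7.41 in the same order with nearly level mRNA and a TE difference of 1.52. GPI16, a subunit of the GPI transamidase, had a footprint difference of 2.16 (counting SE 0.11) and a TE difference of 1.51. The remaining named genes were SUA7, the general transcription factor TFIIB (1.60), CTR9, a Paf1 complex subunit (1.60), SHE3, an adaptor of mRNA transport (1.56), and URB1, a ribosome assembly factor (1.54).

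Heat-shock chaperones formed the gene list with the highest medians in all 3 measures. Of 41 joined members 34 entered, and their median TE difference was 0.47, footprint difference 1.59 and mRNA difference 1.04, beside -0.09, -0.08 and 0.03 over all entered genes. The footprint difference was at least 2-fold higher in 22 of the 34 (64.7%, beside 4.25% of all genes) and lower in 1 (HSP12). The mRNA difference was higher in 18 (52.9%, beside 2.9%) and lower in 1 (HSP12), and the TE difference was higher in 8 (23.5%, beside 2.82%) and lower in 0. The mutants moved apart: median footprint changes were 0.54 in ded1-ts and -0.68 in tif1-ts, and median mRNA changes were 0.20 and -0.60. Against the median gene, the wild types also differed, the other way round: centred footprints of wild-type DED1 minus wild-type TIF1 had a median of -0.37, and those of ded1-ts minus tif1-ts a median of 1.08. For mRNA these medians were -0.40 and 0.59. The part of the wild types in the differences was not tested.

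SSA4, the heat-inducible cytosolic Hsp70, had the highest footprint difference of all named genes, 3.34 (counting SE 0.08). Its footprint levels were 10 in wild-type DED1, 12.47 in ded1-ts, 9.69 in wild-type TIF1 and 8.82 in tif1-ts, and its mRNA levels were 9.6, 10.62, 8.2 and 7.6. KAR2, the Hsp70 of the endoplasmic reticulum, had footprint levels of 13.61, 14.48, 12.41 and 10.30 in that order, with mRNA levels of 11.6, 11.61, 10.6 and 9.1. In KAR2 the difference of 2.98 came mainly from the lower tif1-ts value, and in SSA4 mainly from the higher ded1-ts value. Against the median gene, the wild types also differed in SSA4 footprints, by -1.31 (DED1 minus TIF1), and the mutants by 2.12. The Hsp90 genes HSP82 and HSC82 had footprint differences of 2.57 and 2.37 and mRNA differences of 1.72 and 1.68, and for both the footprint change was above 0 in ded1-ts (0.98 and 0.66) and below 0 in tif1-ts (-1.59 and -1.70).

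HSP104, the disaggregase, had a footprint difference of 1.90 that was nearly all mRNA (1.71), leaving a TE difference of 0.19. The 8 chaperones past 2-fold in TE were SSA4 (1.72), KAR2 (1.47), CNS1 (1.46), LHS1 (1.29), SSC1 (1.14), CDC37 (1.08), SSE1 (1.05) and SSE2 (1.01), which are Hsp70s, their nucleotide exchange factors and Hsp90 cochaperones. HSP12, a small membrane-associated stress protein, went the other way, with footprint changes of -0.88 in ded1-ts and 1.40 in tif1-ts. HSP26, a small heat-shock protein, was higher in both mutants, with footprint changes of 2.39 and 1.61.

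A second list, ER protein folding and quality control, was put together after the values had been seen and shares KAR2 and LHS1 with the chaperones. Of 27 joined members 18 entered, with a median TE difference of 0.22, a footprint difference of 0.55 and an mRNA difference of 0.29. TE was at least 2-fold higher in 5 (ERO1, KAR2, LHS1, KRE5 and ROT2; 27.8%, beside 2.82% of all genes) and lower in 0. Footprints were higher in 6 (33.3%, beside 4.25%). The proteasome list, of which all 35 joined members entered, had a TE median of -0.09, the same as all genes. In TE 2 were higher (SEM1 and RPN8; 5.7%, beside 2.82% of all genes). The footprint and mRNA medians of the list were 0.56 and 0.61. All 35 of its footprint differences were above 0, between 0.06 and 1.33, whereas 1495 of all 2659 genes were below 0. The 1.33 was that of RPN4, which is not a subunit and is also counted among the transcription factors. The highest subunit was RPN8 at 1.19. PRE1, a core particle subunit, had mRNA levels of 8.5, 8.83, 7.1 and 6.3 in the order wild-type DED1, ded1-ts, wild-type TIF1, tif1-ts, and a TE difference of -0.64.

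**Figure D3:**
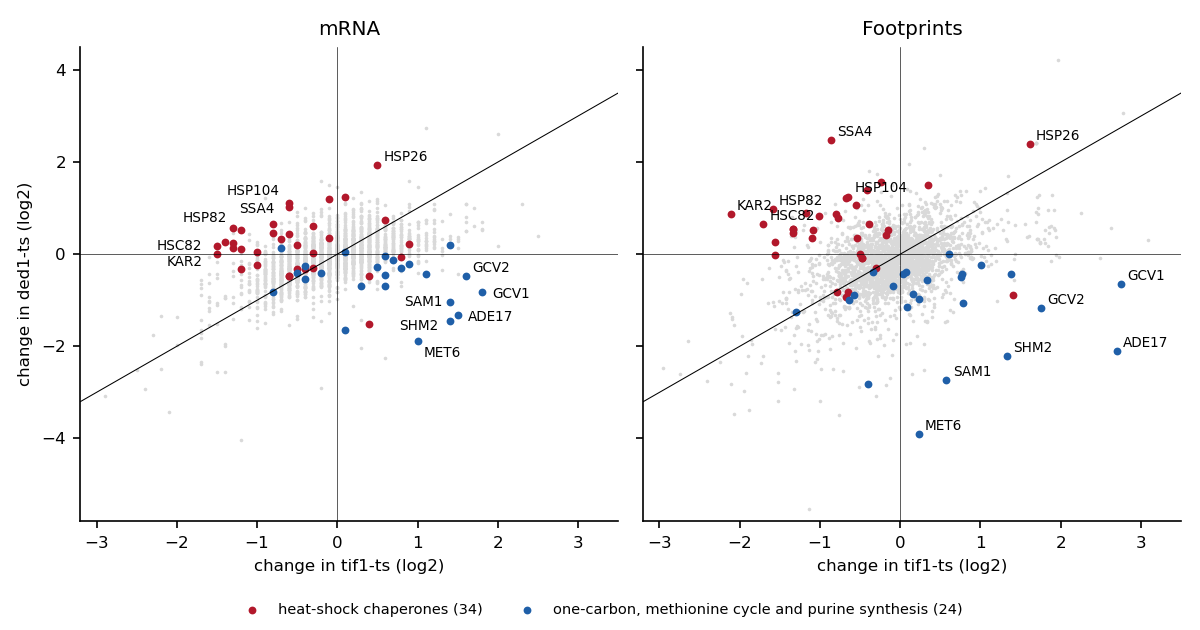
mRNA (left) and footprint (right) changes in tif1-ts (x axis) and ded1-ts (y axis), log2 mutant minus wild type, for 34 heat-shock chaperones (red), 24 genes of one-carbon metabolism, the methionine cycle and purine synthesis (blue) and all other entered genes (grey). The line marks equal changes; most red points lie above it and most blue points below it in both panels.

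Genes of one-carbon metabolism, the methionine cycle and purine synthesis had the lowest footprint and mRNA medians. The list was put together after the values had been seen, so its medians are descriptions only. Of 25 joined members 24 entered, with a median footprint difference of -1.22, an mRNA difference of -1.08 and a TE difference of -0.49. Footprints were at least 2-fold lower in 15 (62.5%, beside 6.92% of all genes), mRNA in 14 (58.3%, beside 2.67%) and TE in 4 (16.7%, beside 6.24%), namely ADE17, MET6, MET12 and ADE8, and none was higher in any measure. The median mRNA change was -0.44 in ded1-ts and 0.60 in tif1-ts. In centred footprints the wild types differed by a median of 0.40 (DED1 minus TIF1) and the mutants by -0.75, and in centred mRNA by -0.05 and -1.12, so the mRNA difference lay with the mutants.

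MET6, the methionine synthase, had footprint levels of 13.57 in wild-type DED1, 9.66 in ded1-ts, 11.17 in wild-type TIF1 and 11.40 in tif1-ts, and mRNA levels of 10.4, 8.52, 8.5 and 9.5. Its footprint difference was -4.14 (counting SE 0.06) and its mRNA difference -2.88. ADE17, an enzyme of the last steps of purine synthesis, had footprint levels of 11.37, 9.26, 7.79 and 10.49 and mRNA levels of 10.2, 8.88, 9.2 and 10.7 in the same order. It was lower in ded1-ts and higher in tif1-ts in both assays. SHM2, the cytosolic serine hydroxymethyltransferase, had footprint levels of 13.03, 10.82, 11.04 and 12.37, a footprint difference of -3.54 and an mRNA difference of -2.86.

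The glycine cleavage genes GCV1 and GCV2 had footprint differences of -3.39 and -2.92, with changes of 2.75 and 1.75 in tif1-ts and -0.64 and -1.17 in ded1-ts. SAM1 and SAM2, S-adenosylmethionine synthetases, had -3.31 and -2.42. Counts behind such opposite changes are read against single changes past 2-fold: footprints were lower in 8.27% and higher in 3.01% of genes in ded1-ts and lower in 5.53% and higher in 3.23% in tif1-ts, and mRNA was lower in 3.05% and higher in 1.35% in ded1-ts and lower in 5.0% and higher in 3.54% in tif1-ts. Changes past 2-fold in opposite directions were found in 5 genes for footprints (CHA1, SHM2, ERO1, ADE17 and GCV2) and in 4 for mRNA (MET6, SHM2, SAM1 and ADE17). All but ERO1 were lower in ded1-ts. CHA1, the serine and threonine deaminase, had footprint changes of -1.01 in ded1-ts and 1.20 in tif1-ts.

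Other extremes of the footprint and mRNA differences lay in single genes. CWP1, a cell wall mannoprotein, had footprint levels of 12.74, 7.20, 11.50 and 10.37 in the order wild-type DED1, ded1-ts, wild-type TIF1, tif1-ts, and mRNA levels of 9.2, 5.16, 8.8 and 7.6. It was lower in both mutants and far more so in ded1-ts, with a footprint difference of -4.41. FET3, the multicopper oxidase of iron uptake, had mRNA levels of 8.9, 6.64, 8.6 and 9.2 in that order, and an mRNA difference of -2.86 with a TE difference of 0.31. The highest mRNA differences were those of CAR2, the ornithine transaminase (2.11), MIT1, a regulator of pseudohyphal growth (1.91), HCH1, an Hsp90 cochaperone (1.86), ARG1, an arginine synthesis enzyme (1.79), and CAR1, arginase (1.76), and none of their TE differences passed 2-fold.

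Several regulatory proteins were among the lower genes. Of 110 joined protein kinases 60 entered, and 11 (18.3%) had a TE difference at least 2-fold lower and 1 (TDA1, 1.7%) higher, beside 6.24% and 2.82% of all genes, with a median of -0.25. The 11 were TPK2, PKC1, KIN2, KIN4, SCH9, PKH1, KIN1, CMK1, MCK1, PSK1 and KSP1. In PKH1, CMK1, PSK1 and KSP1 the mRNA part was the larger. Their mRNA differences were 0.90, 0.92, 0.87 and 0.68 and their footprint differences -0.41, -0.33, -0.21 and -0.37. PKC1, the kinase at the head of the cell wall integrity pathway, had a TE difference of -1.71 with footprint levels of 8.97, 7.52, 7.38 and 7.72 in the order above. SCH9, a growth-control kinase downstream of TORC1, had -1.44 with footprint levels of 9.67, 8.49, 8.05 and 8.16. In PKC1 and SCH9 the ded1-ts footprint change was below -1 and the tif1-ts change above 0. KIN2, a kinase of exocytosis, had -1.69 with footprint levels of 9.0, 8.15, 7.18 and 7.80, so that part of its difference came from a higher tif1-ts value.

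Of 126 joined sequence-specific transcription factors 52 entered, with a median TE difference of -0.21, 7 lower (13.5%, beside 6.24% of all genes) and 1 (TYE7, 1.9%, beside 2.82%) higher. SFP1, an activator of ribosomal protein genes, had -1.90. RPH1, a histone demethylase and repressor, had -1.84, and DOT6, a repressor of ribosome assembly genes, had -1.66. For RPH1 the footprint levels were 7.76, 7.51, 6.43 and 7.52 in the order above and the mRNA levels 8.9, 9.9, 7.2 and 7.7, so footprints were higher in tif1-ts and mRNA higher in ded1-ts. Among 11 of 29 joined mRNAs with characterised upstream open reading frames, 3 were lower (HOL1, SCH9 and HEM3; 27.3%), with a median of -0.51. With an abundance floor of 300, which left 5 of them, their median lay 0.08 above that of all genes instead of -0.42 from it. GCN4, the best known of them, did not enter, since its lowest mean abundance was 61.8. Its footprint levels were 8.05, 11.77, 5.13 and 6.47 in the order above and its TE changes were 2.91 in ded1-ts and 0.94 in tif1-ts. Cell-cycle regulators had a median of -0.16 over 24 of 54 joined, with 2 lower (GRR1 and CDC4, substrate-binding subunits of SCF ubiquitin ligases). The 2 are 8.3% of the list, near the 6.24% of all genes. CLN3, the G1 cyclin whose mRNA carries an upstream open reading frame, was at -0.89.

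RNA polymerase subunits showed a few large members in a list that did not move as a whole. The median TE difference of 26 of 31 joined was -0.02, but 4 (15.4%, beside 6.24% of all genes) were at least 2-fold lower: RPO31 (-2.51), RPA190, the largest subunit of RNA polymerase I (-1.58), RPB7 (-1.33) and RPO21, the largest subunit of RNA polymerase II (-1.10). In RPO21 the mRNA part was the larger, 0.62 beside a footprint part of -0.48. Cell wall genes were split as well, with a median of -0.12 over 51 of 54 joined, 6 lower (CHS3, YPS7, KRE6, FKS1, CWP1 and GSC2; 11.8%) and 2 higher (UTH1 and KRE5; 3.9%). KRE6, a protein of glucan synthesis, had a TE difference of -1.68 with footprint levels of 11.33, 9.30, 9.82 and 9.27 in the order above. CHS3, the main chitin synthase, had footprint levels of 10, 8.08, 8.27 and 8.40 in the order above and a TE difference of -1.82. Plasma membrane transporters had 3 lower (HOL1, TAT2 and SNQ2) and 4 higher (AGP1, HXT3, TPO2 and PDR12) among 49 of 78 joined, with a median of -0.04. Their lower share of 6.1% was near the 6.24% of all genes, and their higher share was 8.2%, beside 2.82%. The secretory pathway had 3 lower (SEC7, GDA1 and SSH1) and 1 higher (SRP21) among 70 of 74 joined, with a median of 0.07 and a lower share of 4.3%, under that of all genes. For PMA1, which encodes the proton pump of the plasma membrane, TE changed by -1.20 in ded1-ts and by -0.56 in tif1-ts, a difference of -0.64.

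Ribosomal protein genes differed by little each, but mostly in the same direction. Of 135 cytosolic ribosomal protein genes that entered, out of 136 joined, 112 had a TE difference below 0, with a median of -0.34 and 5 at least 2-fold lower (RPL22B, RPL9B, RPS22B, RPS12 and RPL30). The 5 are 3.7% of the list, under the 6.24% of all genes, of which 1499 of 2659 were below 0. The 532 shortest genes, of up to 828 bases, had a median of -0.20. TE was above that of wild type in both mutants, by a median of 0.19 in ded1-ts and 0.50 in tif1-ts, and mRNA was below it, by -0.50 and -0.60. Many of these genes have near-identical paralogs, and the sources used here do not say how reads were split between them. Mitochondrial ribosomal proteins had a median of -0.02 over 12 of 59 joined. Ribosome assembly factors differed in mRNA instead: 118 of the 123 that entered, out of 141 joined, had an mRNA difference below 0, with a median of -0.46, made of median changes of -0.07 in ded1-ts and 0.40 in tif1-ts. Over all 2659 genes 1239 mRNA differences were below 0. Among the assembly factors 10 mRNA differences (8.1%, beside 2.67% of all genes) were at least 2-fold lower. Their 4 higher TE differences (NOP53, URB1, BUD22 and NOP14) were 3.3% of the list, near the 2.82% of all genes. The wild types differed in this list by a median of 0.40 in centred mRNA and the mutants by -0.05.

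Translation factors had few differences past 2-fold. None of the 28 initiation factors, all joined members, had a TE, footprint or mRNA difference past it, beside 6.24% lower and 2.82% higher in TE over all genes, and their median TE difference was 0.04. Most lay slightly below 0 in footprints (24 of 28, median -0.15) and in mRNA (22 of 28, median -0.25). The list includes the mutated gene DED1, which had its highest TE difference (0.65) and its lowest mRNA difference (-0.68). Of 15 elongation and termination factors only STM1, a ribosome-associated protein, was past it (-1.25), with a list median of -0.07, and none of 20 cytosolic aminoacyl-tRNA synthetases was, with a median of 0.14. YEF3, the fungal elongation factor 3, had footprint levels of 15.98, 15.92, 14.33 and 13.58 in the order above and a TE difference of 0.73. SUI1, which encodes eIF1, had 11.0, 11.38, 9.12 and 8.95 and a TE difference of 0.52, and EAP1, an eIF4E-binding protein, had a TE difference of 0.47.

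In energy metabolism, oxidative phosphorylation genes had a median TE difference of -0.29 over 23 of 35 joined, with median TE changes of 0.21 in ded1-ts and 0.53 in tif1-ts. ATP1 and ATP2, the catalytic-core subunits of the mitochondrial ATP synthase, had footprint levels of 12.77, 11.30, 10.85 and 11.19 and of 13.01, 11.71, 11.15 and 11.43 in the order above. Their TE differences were -1.40 and -1.46, and in both the footprint change was below -1 in ded1-ts and above 0 in tif1-ts. COX4, a cytochrome c oxidase subunit, was lower through tif1-ts, where its TE change was 1.28. General stress genes, with 27 of 38 joined, had 25 TE differences below 0, a median of -0.42 and 4 lower (ALD3, GPH1, GPD1 and MSC1), with a median mRNA difference of 0.49. The lower share was 14.8%, beside 6.24% of all genes, and 1499 of all 2659 genes were below 0. In centred mRNA the wild types of this list differed by a median of -0.60 (DED1 minus TIF1) and the mutants by 0.04. GPH1, glycogen phosphorylase, had mRNA levels of 9.0, 9.22, 8.1 and 6.6 in the order above, so its TE difference of -1.29 came with lower mRNA in tif1-ts. The 17 of 18 joined glycolysis genes had a TE median of -0.14, a footprint median of 0.48 and an mRNA median of 0.42, since mRNA changed by a median of -0.23 in ded1-ts and -1.0 in tif1-ts.

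Medians of the TE difference in the remaining lists were -0.07 for 16 of 18 joined TCA cycle genes, 0.11 for 57 of 60 in amino acid biosynthesis, -0.24 for 11 of 21 in sulfur and methionine metabolism, -0.14 for 23 of 25 in ergosterol synthesis, -0.24 for 15 of 17 of the vacuolar ATPase and 0.16 for 28 of 31 nuclear pore proteins. In amino acid biosynthesis footprints were at least 2-fold higher in 10 genes (17.5%, beside 4.25% of all genes) and lower in 3 (5.3%, beside 6.92%). In sulfur and methionine metabolism the footprint and mRNA medians were -0.56 and -0.66. In each measure 4 genes were lower (MET6, SAM1, SAM2 and MUP1; 36.4%, beside 6.92% and 2.67%), and SAM4 was higher in footprints (9.1%, beside 4.25%). MET6 and SAM1 are also in the one-carbon list. STV1, a subunit of the vacuolar ATPase, was at -1.65 and NUP100, a nucleoporin, at -1.47. ERG11, the lanosterol demethylase, was at -0.84, while NCP1 of the same list was at 1.52. Histone genes had a median of 0.11, but their mRNA was far lower in both mutants, with medians of -2.50 in ded1-ts and -1.95 in tif1-ts over 8 of 10 joined genes. HTA2, encoding histone H2A, had mRNA levels of 11.5, 8.43, 10 and 7.1 in the order above. Fewer cells in the phase that makes histone mRNA and less of it per cell cannot be told apart here.

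**Figure D4:**
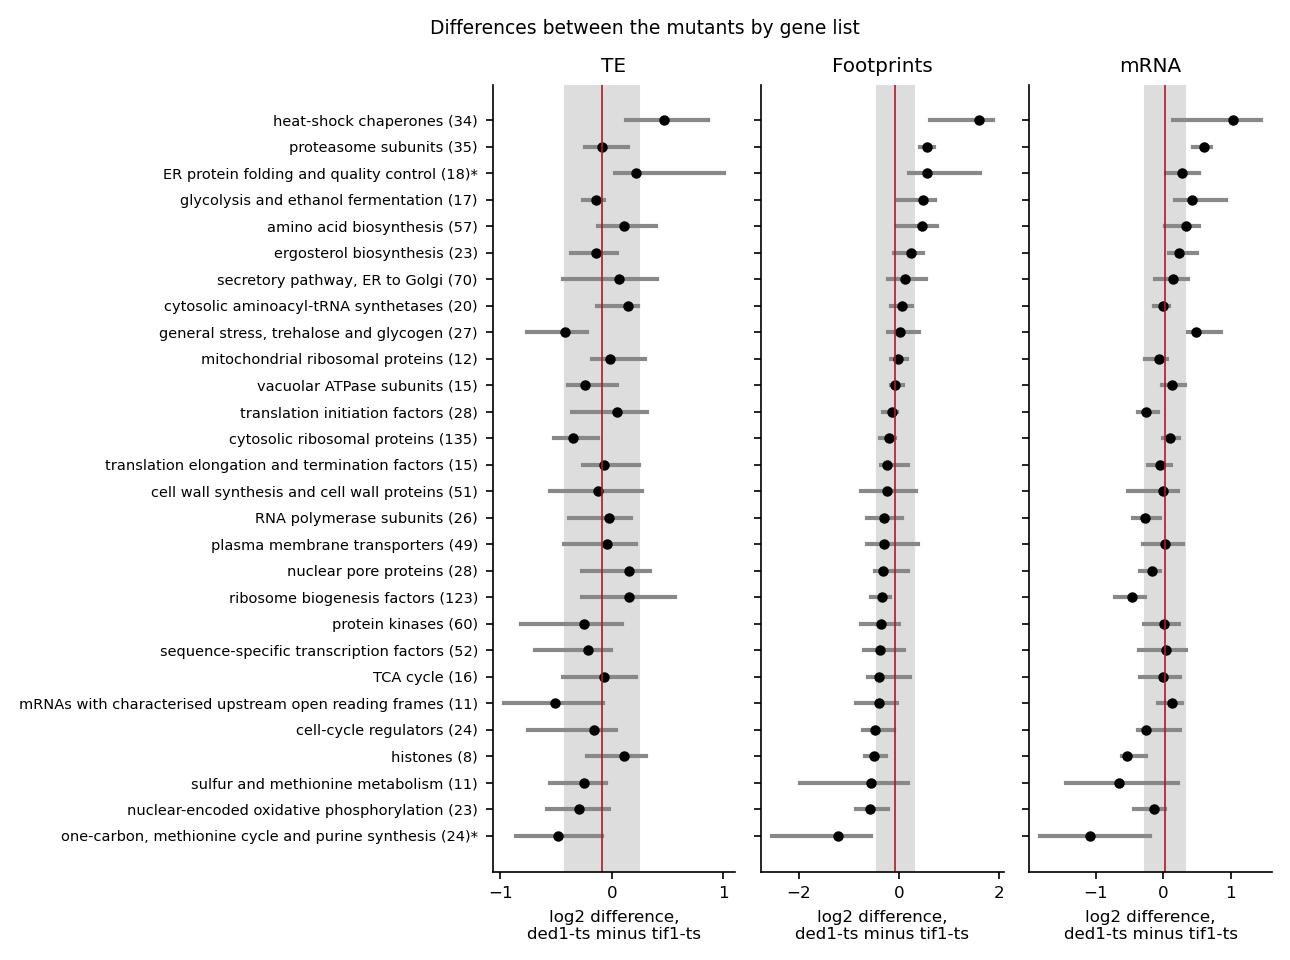
Median (points) and interquartile range (bars) of the TE, footprint and mRNA differences, ded1-ts minus tif1-ts in log2 units, for 28 gene lists with the number of entered members in brackets. The red line and grey band give the median and interquartile range of all 2659 genes, and an asterisk marks the 2 lists put together after the values had been seen; heat-shock chaperones stand at the top and one-carbon genes at the bottom of the footprint panel.

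Coding length moved with the TE changes of both mutants and much less with their difference. Length here runs from start to stop codon, introns included. Across 2657 genes with a length, Spearman's rho was -0.42 for the TE change in ded1-ts, -0.51 in tif1-ts and 0.11 for the TE difference, as a description across genes. The relation lay in mRNA: rho was 0.46 and 0.47 for the mRNA changes and -0.01 and -0.03 for the footprint changes. With the genes in 5 equal groups by length, from the shortest to the longest, the median TE change went from 0.22 to -0.27 in ded1-ts and from 0.40 to -0.38 in tif1-ts. Large TE differences were more frequent among long genes: in the group of 2454 bases or more, 13.16% of genes were at least 2-fold lower and 4.89% higher, beside 2.82% and 1.32% in the shortest. The median length was 2166 bases in the 166 lower genes, 2049 in the 75 higher genes and 1371 in the others, and 2484 in the 91 lower genes carried by ded1-ts. RNA quality was not measured, and its part in the relation of mRNA change with length was not tested.

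**Figure D5:**
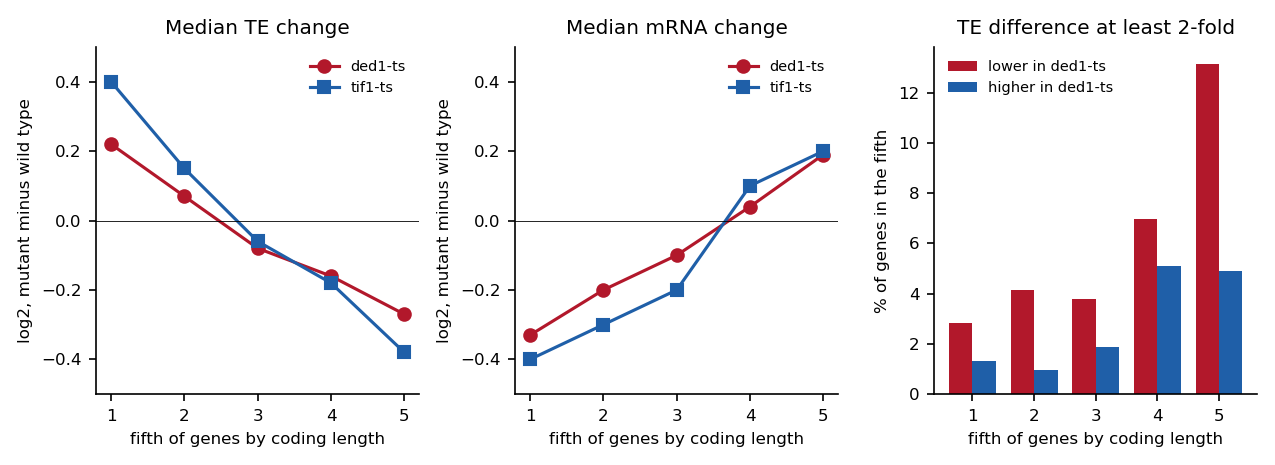
Genes in 5 equal groups by coding length (x axis, 1 the shortest): median TE change (left) and median mRNA change (middle) in ded1-ts and tif1-ts, in log2 units, and the share of genes with a TE difference of at least 2-fold in either direction (right). TE changes go down and mRNA changes go up with length in both mutants, and the share of lower genes is 13.16% in the longest group.

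Wild-type TE differed between the groups of genes as well. The median TE in wild-type DED1 was 0.05 in the 166 lower genes, 0.57 in the 75 higher genes and 0.41 in the others, and in wild-type TIF1 it was -0.08, 0.96 and 0.33. The value of 0.96 contains the wild-type mRNA levels from which the TE difference was computed, so it is not an independent feature of the higher genes.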

How the data were processed

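mRNA and RNase I footprint libraries of 4 strains at 37 °C were used, from 2 of the deposited tables. The deposited values are log2 normalized abundances per gene, with 1 value per group. The sources used here do not give how the authors combined the 2 replicates, nor the annotation, strand setting, filters and treatment of reads that match several places. Per the submitters' processing notes, DESeq, TopHat2 2.0.7, Bowtie2 2.0.6, CASAVA 1.8 and the build sacCer2 were used, with no roles given. Normalization within a table makes each change relative to the other genes.

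Tables were joined on systematic names. Changes were differences of the level columns (Python 3.11.15, pandas 2.3.3, numpy 2.4.6, scipy 1.17.1, matplotlib 3.10.9), and the code was tested on simulated data. Footprint reads were estimated from the spacing of low values: among genes of up to 10 reads, 100% were within 0.1 read of a whole number in wild-type DED1, ded1-ts and tif1-ts, and 92.7% in wild-type TIF1. Genes at 0 reads were left out. Symbols and lengths came from a RefSeq gene table of another build, so no coordinates are given. The planned features of sequence before the start codon were not computed, and a fit on replicates was not run.

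The members, the 28 lists and the rule for named genes were chosen with earlier results of these data known, and 2 lists were added after the values were seen. Named genes were DED1, TIF2, GCN4, PMA1, the 12 largest TE differences and 5 largest footprint and mRNA differences per direction among genes with a standard name and unique entries, and 3 members per list, of which examples are given and some are not reported here; members past 2-fold, and the genes in small classes, were named after their values were seen.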

Additional observations from a re-analysis of the deposited data

Results flagged for a closer look

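Changes of at least 2-fold in opposite directions in the mutants singled out 7 genes, and the difference was not tested, since each group has 1 value. In footprints, ded1-ts minus tif1-ts, the differences were -2.21 for CHA1, -3.54 for SHM2, 2.28 for ERO1, -4.81 for ADE17 and -2.92 for GCV2. In mRNA they were -2.88 for MET6, -2.86 for SHM2, -2.44 for SAM1 and -2.82 for ADE17. SHM2 and ADE17 met the criterion in both assays. Footprint counting errors of these genes were 0.04 to 0.09.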

How the results depend on the processing

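The abundance floor moved the counts most. With a floor of 10 (4852 genes), 318 genes were lower and 208 higher in the TE difference, 317 and 223 in footprints, 157 and 139 in mRNA; TE was higher in ded1-ts for 108, and in tif1-ts lower for 154 and higher for 261. With no floor (4912 genes) these counts were 338 and 222, 333 and 239, 159 and 145, 139, 160 and 291. With a floor of 300 (780 genes) they were 53 and 12, 68 and 45, 30 and 33; TE was lower in ded1-ts for 52 and higher for 6, and in tif1-ts lower for 16 and higher for 38. More or fewer genes are counted by construction. In 8 other settings (the authors' deposited changes, a pseudocount of 10, centring, rescaling, no identical entries, no unmatched names, a floor scaled to each table, no YRF1 or unnamed genes) every count of genes past 2-fold was within 1.5 times. The last 3 were chosen after seeing the data. The median of mRNAs with upstream open reading frames, -0.42 from that of all genes, was 0.08 above it at a floor of 300, with 5 members. Distances of list medians from that of all genes moved by over 0.1 only with the floor, in 14 further cases, against 292 that moved by less, with no other change of sign among lists 0.25 or more from all genes. At a floor of 300, 4 oxidative phosphorylation genes lay at -0.85, 2 transcription factors at -1.02, 17 ribosome assembly genes at 0.35 and 18 one-carbon genes at -0.19; at a floor of 10, the 29 mRNAs with upstream open reading frames lay at -0.20. With the deposited changes GPD1 (-0.98) and HEM3 (-0.97) were no longer past 2-fold. No paired analysis was possible because the tables hold 1 value per group, and for the same reason no replicate could be left out. Depth limits tif1-ts footprints most, at 3.88 M reads.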
